A study of Homo sapiens with 6 samples.

Results

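The response of C4-2 cells to depletion of EZH2 was set beside their response to astemizole, gene by gene, to separate what both perturbations shared from what only one of them showed. The cells are an established line of human prostate cancer, a derivative of LNCaP, and were used between passages 10 and 15. They received vehicle, astemizole, lentivirus with a scramble shRNA, or lentivirus with 1 of 2 EZH2 shRNAs, and their polyadenylated RNA was sequenced. GSK126, an inhibitor of EZH2 catalysis, was a further treatment of the study and is cited only as a side value. The labels give no dose, no time of exposure and no measure of cell number. The astemizole response of a gene is log2((FPKM + 1) with astemizole / (FPKM + 1) with vehicle). The knockdown response is the same ratio of the EZH2 knockdown column to the scramble column. The difference of responses is the knockdown response minus the astemizole response, so a negative value means that the knockdown response was the lower of the pair. Of 28503 lines in the deposited table, 12711 genes were kept: those at 1 FPKM or more in any of the 4 columns and above 0 in all 4. FPKM is a read count scaled to transcript length and to the mapped reads of a library, and 2-fold below means 1 on the log2 scale of FPKM + 1, which understates differences of low genes.

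EZH2 is the catalytic subunit of Polycomb repressive complex 2 (PRC2), which places the repressive methyl mark on lysine 27 of histone H3, and EED and SUZ12 are the partners it needs for activity. In prostate cancer EZH2 is abundant in aggressive disease and is itself a cell cycle gene, expressed in dividing cells under E2F control. Astemizole is an antihistamine that also blocks the hERG potassium channel and has been reported to interfere with the contact between EZH2 and EED. It is a cationic amphiphilic compound, a kind of molecule that accumulates in lysosomes. Setting the contrasts side by side asks which genes differ from their control in both perturbations and which in 1 of them.

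Each condition had 1 value, so no test, standard deviation or replicate check exists for anything below, and every difference describes these libraries only. The knockdown column is the authors' single value for both EZH2 shRNAs, and the sources used here do not say how it was made. Depth is unknown. Judged by the steps between low values, the FPKM value of 1 read with astemizole was 1.05 times that with vehicle, and with scramble shRNA 0.858 times. The summed FPKM of the 4 columns lay between 661933 and 796603. The 2 control columns were not alike: with scramble shRNA 16 genes (0.126%) lay 2-fold or more above their vehicle level and 81 (0.637%) below it, and the median of all genes was -0.10. Transduction and the drug vehicle differ between these controls, so a difference of responses cannot be told apart from a difference between them. Each class is given with the number of its genes that stayed in it when the controls were exchanged. Named genes that left it are listed beside that number or where they are discussed, but not all of them. Luminal prostate markers were present in all 4 columns (6 of 6 measured, summed level 937 to 1183 FPKM). Basal markers summed to 1.31 to 4.67 FPKM, fibroblast markers to 1.40 to 3.28, and blood markers to 0.0948 to 1.14. Liver markers summed to 20.7 FPKM with vehicle and 5.69 with astemizole, and to 2.09 with scramble shRNA and 3.23 with knockdown.

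The gene targeted by the shRNAs was lower in both perturbations. EZH2 stood at 26.5 FPKM with vehicle and 9.48 with astemizole, against 24.6 with scramble shRNA and 3.35 with knockdown. Its responses were -1.39 to astemizole and -2.55 to knockdown, and the difference was -1.16. In the same order of columns the partner EED stood at 14.9, 7.71, 13.6 and 8.16 FPKM, with responses of -0.87 and -0.67. SUZ12, the scaffold of the complex, stood at 28.4, 18.1, 28.6 and 13.4 FPKM, with responses of -0.62 and -1.04. Both core partners were thus lower with either perturbation, neither by 2-fold with astemizole. EZH1, the alternative methyltransferase, stood at 3.81, 4.56, 2.85 and 6.12 FPKM, and the accessory subunit JARID2 at 5.95, 6.67, 6.43 and 14.9. JARID2 was the only PRC2 gene of 12 at least 2-fold higher with knockdown (1.10, against 0.14 with astemizole). The median over the 12 genes was -0.61 for astemizole and -0.50 for knockdown.

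Across the transcriptome the responses overlapped mainly among genes that were lower. Compared with vehicle, astemizole gave 436 genes (3.43%) that were at least 2-fold higher and 677 (5.33%) that were lower. In the knockdown column 242 (1.9%) were at least 2-fold higher and 642 (5.05%) lower than with scramble shRNA. These shares are the background for the counts of list members given below. Of the 677 genes lower with astemizole, 397 (58.6%) were also at least 2-fold lower with knockdown, 126 (18.6%) were lower by 0.5 to 1 on the log2 scale, and 139 (20.5%) lay within 0.5 of no difference. Of the 436 genes higher with astemizole only 63 (14.4%) were also at least 2-fold higher with knockdown, while 256 (58.7%) lay within 0.5. Read from the other side, the 397 shared genes were 61.8% of those lower with knockdown, and the 63 were 26% of those higher. In both directions together 460 genes were shared, 41.3% of the 1113 astemizole genes and 52.0% of the 884 knockdown genes. The contrasts use no column in common, so this overlap does not come from a shared control.

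Across the 12711 genes the responses had Pearson's r of 0.556 and Spearman's rho of 0.389, given as a description because genes are not independent replicates. Without the 397 genes lower in both, r was 0.337 and rho 0.328 over 12314 genes. The difference of responses was 2-fold or more higher for 394 genes (3.1%) and lower for 552 (4.34%), so 41.6% of these 946 genes were on the higher side. That share depends on the scale and the control: it was 32.3% after TPM rescaling, 27.7% when each response was centred on its median, 22.2% with the controls exchanged and 20.3% when the knockdown and astemizole columns were compared directly. At a 1.5-fold limit it was 53.7%, so the higher side was then the larger. Genes at the limits were AGAP6 at 1.003 and SLC9A7 at -1.001, just inside, and PFAS at 0.9998 and WIPI1 at -0.9994, just outside. At the level limit, TAS2R14 was kept with a highest value of 1.0001 FPKM and SH3BP5-AS1 was left out with 0.999. Genes with a 2-fold difference were somewhat more frequent at low levels: they made up 9.33% of genes with a mean below 1 FPKM, 9.20% of genes with a mean of 1 to 5 FPKM, 6.67% from 5 to 20 FPKM, 6.29% from 20 to 100 FPKM and 7.89% from 100 FPKM.

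Genes were placed in 7 classes. The shared classes hold genes past 2-fold in the same direction with both perturbations. The astemizole-only and knockdown-only classes hold genes past 2-fold with 1 perturbation and within 0.5 with the other. Their difference of responses also had to reach 2-fold, so these classes are smaller than the counts within 0.5 given above. The opposite class holds genes past 2-fold in opposite directions. The counts were 63 shared higher, 397 shared lower, 178 astemizole-only higher, 72 astemizole-only lower, 74 knockdown-only higher, 64 knockdown-only lower and 12 opposite.

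**Figure D1:**
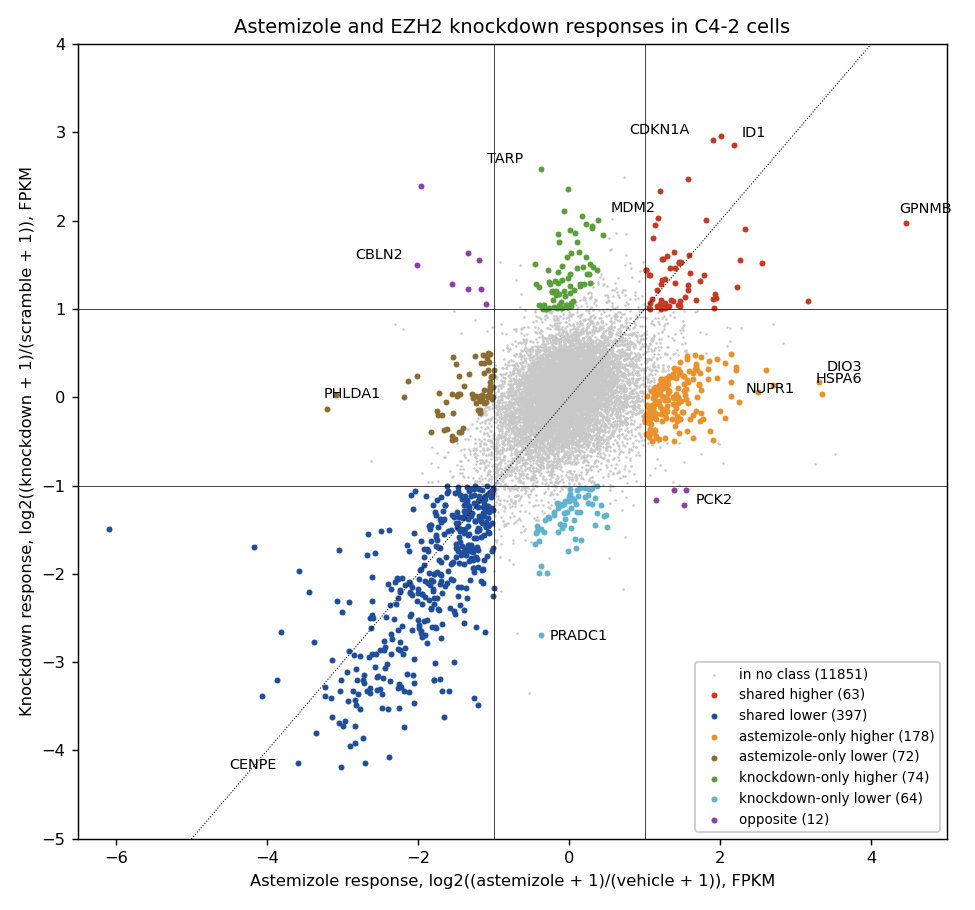
Knockdown response (vertical) against astemizole response (horizontal) of 12711 genes, both as log2 of FPKM + 1 over the control; colours mark the 7 classes, thin lines 2-fold and the dotted line equal responses. The 397 shared lower genes form the long tail at lower left, and the 178 astemizole-only higher genes lie along the horizontal axis with HSPA6 and DIO3 farthest out.

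Cell division genes were lower with both perturbations. All 30 G2 and M phase genes and all 32 S phase genes measured were at least 2-fold lower with astemizole and with knockdown. The medians of the 30 were -2.80 and -3.21, and those of the 32 were -1.74 and -2.45, where the medians of all genes were -0.06 and 0.03. RNA was measured in bulk, so fewer dividing cells and less RNA per dividing cell cannot be told apart. In the lists below levels are given in the order vehicle, astemizole, scramble shRNA, knockdown.

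CENPE, the kinetochore motor that carries chromosomes to the spindle equator, stood at 35.8, 2.05, 32.5 and 0.893 FPKM, with responses of -3.59 and -4.14. CDC20, the activator of the anaphase-promoting complex, stood at 136, 12.4, 80.2 and 4.83 FPKM, with responses of -3.35 and -3.80. UBE2C, the ubiquitin-conjugating enzyme of that complex, stood at 139, 15.8, 86.7 and 5.81. For each of the 3 genes the astemizole and knockdown values lay far under both controls. PLK1, the mitotic entry kinase, stood at 71.3, 6.72, 35.3 and 2.74 FPKM, and CCNB2, a cyclin that pairs with CDK1, at 95.5, 9.28, 58.7 and 4.71. PTTG1, which encodes the separase inhibitor securin, stood at 303, 19.7, 139.7 and 14.3. These 3 also differed between the controls, by -0.995, -0.69 and -1.11, beside astemizole responses of -3.23, -3.23 and -3.88 and knockdown responses of -3.28, -3.39 and -3.21. NMU, a neuropeptide gene outside the cell cycle lists, belonged to the same extreme of the class, at 48.2, 1.93, 25.4 and 1.52 FPKM.

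S phase and G2 and M phase genes both had a lower median response to knockdown than to astemizole, and which list differed more turned with the control. The difference of responses had a median of -0.79 over the 32 S phase genes, with 30 below 0 and 10 past 2-fold, and of -0.46 over the 30 G2 and M phase genes, with 26 below 0 and 2 past 2-fold. CDC6, which loads the replicative helicase, stood at 44.2, 13.4, 48.8 and 3.03 FPKM, responses of -1.65 and -3.63. FEN1, the nuclease that trims lagging-strand flaps, stood at 93.4, 28.3, 82.6 and 7.34, responses of -1.69 and -3.32. CDC45, a component of the active helicase, stood at 36.4, 7.19, 35.5 and 1.75, responses of -2.19 and -3.73. The controls of these 3 genes lay within 0.18 of each other on the log2 scale, and knockdown gave the lower value each time. LIG1, the ligase that joins lagging-strand fragments, went the other way, at 10.3, 3.43, 7.94 and 3.40 FPKM (-1.35 and -1.02), and RFC3, a clamp loader subunit, had -2.27 for both. With the controls exchanged the S phase median was -0.81, and it was -0.75 in the direct comparison of the treated columns. The G2 and M phase median was -1.42 and -0.93 in these settings, lower than the S phase median, the reverse of the order with each perturbation's own control, and for that list the median of scramble shRNA over vehicle was -0.51.

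Genes of homologous recombination and the Fanconi pathway followed the S phase genes: of 16 measured, 10 were at least 2-fold lower with astemizole and 13 with knockdown, with medians of -1.40 and -1.99. XRCC2, a recombination factor, stood at 7.49, 3.53, 9.44 and 1.28 FPKM, responses of -0.91 and -2.20. BARD1, the partner of BRCA1, stood at 13.7, 22.8, 19.4 and 15.4 and was lower in neither by 2-fold. The knockdown level of XRCC2 was the lowest of the 4, with a difference of -1.29.

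Among 20 cell cycle regulators 9 were at least 2-fold lower with astemizole and 12 with knockdown, and none was 2-fold higher with either. E2F1, the activator of replication genes, stood at 43.5, 12.6, 40.2 and 3.51 FPKM (-1.71 and -3.19). MYBL2, which activates mitotic genes, stood at 142, 20.9, 103 and 4.90 (-2.71 and -4.14). CCND1, the cyclin of early G1, stood at 114, 73.2, 172 and 238, responses of -0.63 and 0.46. CCND1 was thus lower with astemizole and higher with knockdown, past 2-fold in neither against its own control. The difference was 1.09 (1.69 in the direct comparison). With the controls exchanged its responses were -1.23 and 1.06, past 2-fold in both, with a difference of 2.28.

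Promoter sequence is shown for 4 genes of this class, because late and early cell cycle genes are known to carry different promoter elements. The windows are of 100 bases in RefSeq on GRCh38.p14, from -112 to -13 of the start site for CDC20 and from -100 to -1 for the others, read 5′ to 3′ on the gene's strand. They are CDC20 at chr1:43358869-43358968 (plus strand), CCNB2 at chr15:59105046-59105145 (plus), UHRF1 at chr19:4909401-4909500 (plus) and PRIM1 at chr12:56752324-56752423 (minus). Capitals mark the CHR (TTTGAA or TTCGAA) in CDC20 and CCNB2 and the E2F site (TTCCCGC or TTGGCGC) in UHRF1 and PRIM1, found on either strand.
CDC20: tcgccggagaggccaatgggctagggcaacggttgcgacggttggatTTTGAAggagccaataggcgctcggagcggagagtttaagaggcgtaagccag
CCNB2: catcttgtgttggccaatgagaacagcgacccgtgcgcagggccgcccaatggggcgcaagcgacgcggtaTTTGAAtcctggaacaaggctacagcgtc
UHRF1: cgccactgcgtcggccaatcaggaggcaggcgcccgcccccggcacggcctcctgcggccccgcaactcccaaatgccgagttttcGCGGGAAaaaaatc
PRIM1: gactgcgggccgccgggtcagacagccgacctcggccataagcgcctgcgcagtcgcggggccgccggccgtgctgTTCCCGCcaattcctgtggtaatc
CDC20 and CCNB2 stood at 12.4 and 9.28 FPKM with astemizole and 4.83 and 4.71 with knockdown. UHRF1, which maintains DNA methylation at replication, stood at 22.2, 3.86, 26.5 and 1.90, and PRIM1, the primase subunit, at 47.8, 13.2, 40.7 and 4.16. Over 300 bases around the start site, 250 before and 50 after, the CHR occurred in 72.0% of the 25 G2 and M phase promoters in the table and in 16.6% of all 27305 promoters. The CCAAT box (CCAAT) occurred in 88.0% and 35.7%, and also in 64.3% of the S phase promoters, so it was not particular to the G2 and M phase list. The E2F site occurred in 71.4% of 28 S phase promoters, in 12% of the G2 and M phase promoters and in 9.33% of all. Among the 9656 of 12711 kept genes with a promoter in the table, the shares were 10.6% for the CHR, 37.6% for the CCAAT box and 15.2% for the E2F site, so the E2F share of the G2 and M phase list lay above the one background and below the other. These shares describe gene lists that differ in their median response, and a match is not evidence that a factor bound. Shares over the classes are not given, because under 80% of the members of most of them, the shared lower class included, had a promoter in the table. The background of kept genes has the same limit, with 9656 of 12711 covered.

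With the controls exchanged the shared lower class kept the largest share of its genes, 337 of 397 (84.9%). Its median responses of -1.72 and -1.95 lay well past 2-fold, and the classes have different limits. The shares kept are therefore not like for like between classes. Of the 397, 356 had responses within 2-fold of each other, 34 were lower by 2-fold or more with knockdown and 7 with astemizole, and 272 (68.5%) had the lower value with knockdown. The GSK126 column had a median of -0.73 against vehicle and -0.45 against scramble shRNA for the same genes, with 60 and 22 of them at least 2-fold lower. Among all 12711 genes 101 and 44 were, with medians of -0.04 and 0.05. The comparison with vehicle shares its control with the astemizole contrast, and the comparison with scramble shRNA with the knockdown contrast.

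Outside cell division, hypoxia and glycolysis genes were lower with both: 10 of 25 were at least 2-fold lower with astemizole and 10 with knockdown, with medians of -0.94 and -0.74, and 8 of the 25 were in the shared lower class. Over all genes, 5.33% were at least 2-fold lower with astemizole and 5.05% with knockdown. LDHA, the lactate dehydrogenase subunit of glycolytic cells, stood at 736, 140.0, 999 and 350.4 FPKM (-2.39 and -1.51). HK2, the first kinase of glycolysis, stood at 12.8, 4.22, 15.8 and 5.53 (-1.40 and -1.37), and PFKFB3, a glycolytic regulator, at 12.7, 3.14, 12.5 and 2.77 (-1.72 and -1.85). The responses of HK2 and PFKFB3 were nearly equal, and LDHA was lower with astemizole. VEGFA, the angiogenic ligand, did not follow, at 26.5, 49.6, 30.2 and 23.3 FPKM (0.88 and -0.36).

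Androgen-induced genes had near-equal medians of -0.52 and -0.55 against their own controls but differed gene by gene. With the controls exchanged the medians were -0.65 for astemizole and -0.17 for knockdown, so the near equality depended on the control. The median difference was -0.01, and it was 0.16 in the direct comparison and 0.35 with the controls exchanged. Of 28 measured, 7 passed 2-fold downward and 1 upward with astemizole, and 6 downward and 2 upward with knockdown. The shares over all genes were 5.33% downward and 3.43% upward with astemizole, and 5.05% and 1.9% with knockdown. FKBP5, a chaperone of steroid receptors, stood at 64.1, 18.6, 91.5 and 16.4 FPKM (-1.73 and -2.41), and CAMKK2, a kinase of metabolic signalling, at 45.2, 20, 49.4 and 19.3 (-1.14 and -1.32). Both genes were lower in both perturbations. KLK2, a prostate kallikrein, stood at 477, 111, 473 and 218 (-2.10 and -1.11) and KLK3, the gene of prostate-specific antigen, at 2675, 1229.9, 2796 and 1635 (-1.12 and -0.77), lower with astemizole than with knockdown. HOMER2, STEAP2 and KLK4 were higher with astemizole (0.75, 0.98 and 0.73) and not with knockdown (-1.13, -0.54 and -0.02). STEAP2, a metalloreductase of the prostate epithelium, stood at 72.5, 144, 109 and 74.2. INPP4B, a phosphatase of phosphoinositide signalling, had -0.62 and 0.78, from 2.68, 1.39, 1.89 and 3.96 FPKM.

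The shared higher class held 63 genes, and ID1, ID2, ID3 and CDKN1A were among those with the largest responses to both perturbations. ID1, an inhibitor of basic helix-loop-helix factors and a target of BMP signalling, stood at 11, 53.5, 4.22 and 36.9 FPKM (2.19 and 2.86). Its relative ID3 stood at 7.5, 33.4, 3.15 and 31.2 (2.02 and 2.96), and ID2 at 6.75, 44.6, 5.51 and 17.7 (2.56 and 1.52). The 3 ID genes were the only ones past 2-fold among the 12 measured ID and BMP feedback genes, with both perturbations. CDKN1A, the gene of p21, an inhibitor of cyclin-dependent kinases, stood at 99.4, 374, 48.0 and 369.8 FPKM. Its responses were 1.90 and 2.92, yet the treated levels were nearly the same: the difference of 1.02 became -0.02 in the direct comparison and -1.05 with the controls exchanged. ID1 behaved alike, with a difference of 0.67 that was -0.52 in the direct comparison.

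ACPP, the gene of prostatic acid phosphatase, stood at 4.09, 16.9, 4.40 and 20.7 FPKM (1.81 and 2.01), with controls within 0.09. FGF13, a growth factor homologue that acts inside cells, stood at 4.90, 28.6, 2.75 and 13.0 (2.33 and 1.90). IGFBP3, which binds insulin-like growth factors and has been reported as repressed by EZH2, stood at 2.58, 16.2, 1.37 and 5.96 (2.26 and 1.56). The 3 genes were higher in each treated column than in either control. Also named by rule were RNF144B, a ubiquitin ligase gene, at 2.29, 8.87, 1.37 and 6.24 FPKM, and SCGB1D2, a secretoglobin gene, at 1.81, 7.40, 0.405 and 6.79. GPNMB, a lysosomal and melanosomal glycoprotein, was past 2-fold with both but unequally, at 5.75, 148, 2.24 and 11.7 FPKM (4.46 and 1.97, difference -2.49). Of the 63 genes 36 (57.1%) stayed in the class with the controls exchanged. IGFBP3, GPNMB and SESN2, a stress sensor, left it.

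Among genes reported elsewhere as repressed by EZH2, 10 of 18 were measured. At least 2-fold higher were 2 with astemizole and 3 with knockdown, where 3.43% and 1.9% of all genes were. The medians were 0.02 and 0.09. CDKN2B, which encodes the inhibitor p15, stood at 0.282, 10.5, 0.214 and 1.59 FPKM (3.17 and 1.10). WNT5A, a secreted WNT ligand, stood at 3.33, 2.57, 3.15 and 10.3 (-0.28 and 1.44). CDH1, the epithelial cadherin, stood at 54.6, 82.0, 75.4 and 41.0 (0.58 and -0.86). The members therefore did not respond alike: CDKN2B was higher with both, more with astemizole, WNT5A with knockdown and not with astemizole, and CDH1 past 2-fold in neither.

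**Figure D2:**
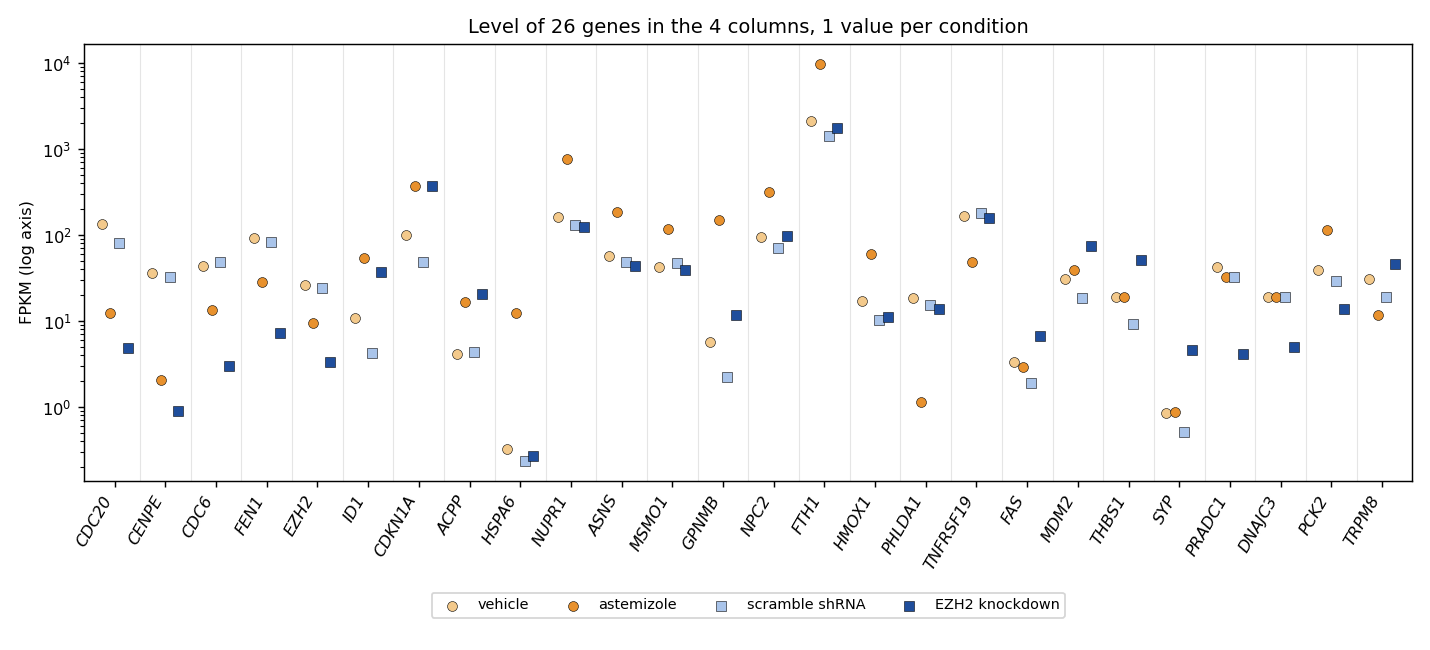
FPKM on a log axis of 26 genes named in the text in the vehicle and astemizole (circles) and scramble shRNA and EZH2 knockdown (squares) columns, 1 value each with no error. From left to right the genes go from shared (CDC20 to ACPP) through astemizole-only or astemizole-dominated (HSPA6 to TNFRSF19) to knockdown-only (FAS to DNAJC3) and opposite (PCK2 and TRPM8).

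The astemizole-only higher class held 178 genes. Among lists with 5 or more genes, the integrated stress response had the lowest median difference of responses. This pathway slows general translation while its transcription factor ATF4 activates genes of amino acid supply and stress defence. With astemizole 13 of 23 measured genes passed 2-fold upward and 0 downward, with a median of 1.19. With knockdown 1 was higher and 2 were lower, with a median of -0.24. Over all genes 3.43% were higher and 5.33% lower with astemizole, and 1.9% and 5.05% with knockdown. The difference of responses had a median of -1.36, with 16 genes past 2-fold and 21 below 0, and this median was -1.70 in the direct comparison and -2.03 with the controls exchanged.

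NUPR1, a stress-induced chromatin protein, stood at 162, 770.3, 129.6 and 125 FPKM (2.24 and -0.05). SLC7A11, the cystine importer, stood at 5.92, 24.9, 4.59 and 3 (1.91 and -0.48), and ASNS, asparagine synthetase, at 57.3, 186, 48.8 and 43.7 (1.68 and -0.16). In all 3 the astemizole column stood alone above the other 3 columns. ATF4 itself stood at 387, 744, 244 and 194 FPKM (0.94 and -0.33), and CHAC1, an enzyme that degrades glutathione, at 4.01, 14.2, 1.51 and 1.12 (1.60 and -0.24). TRIB3, a pseudokinase that restrains the pathway, stood at 28.5, 75.4, 19.0 and 9.25 (1.37 and -0.96). Enzymes of serine synthesis went the same way, PSAT1 with 1.19 and -0.47 and PHGDH with 0.79 and -0.83. MTHFD2, an enzyme of mitochondrial folate metabolism, was an exception in the astemizole arm, at 86.3, 82.1, 68.6 and 24.6 FPKM (-0.07 and -1.44). Exceptions on the knockdown side were SESN2, which was higher with both (1.34 and 1.46), and DDIT3, the gene of CHOP, at 29.5, 85.6, 16.5 and 28.7 (1.5 and 0.76). Aminoacyl-tRNA synthetases, which ATF4 also activates, had medians of 0.46 and 0.11 over 12 genes, with SARS (1.13 and 0.35) and GARS (1.01 and 0.30) past 2-fold with astemizole.

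For 2 members the promoter holds an amino acid response element, TGATGNAA, the composite site to which ATF4 dimers are known to bind. The windows are chr7:97872423-97872522 (minus strand) for ASNS and chr15:40953221-40953320 (plus strand) for CHAC1, in RefSeq on GRCh38.p14. They span bases -114 to -15 from the start site for ASNS and -250 to -151 for CHAC1, with the element in capitals (in CHAC1 as its reverse complement).
ASNS: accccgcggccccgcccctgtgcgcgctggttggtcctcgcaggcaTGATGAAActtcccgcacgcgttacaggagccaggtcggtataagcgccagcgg
CHAC1: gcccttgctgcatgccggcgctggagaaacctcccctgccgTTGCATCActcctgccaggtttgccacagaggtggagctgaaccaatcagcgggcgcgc
The element occurred in 4 of the 20 promoters of this list in the table (20%) and in 3.67% of all promoters, or 1.54% of those of kept genes. ASNS and CHAC1 had astemizole responses of 1.68 and 1.60 and knockdown responses of -0.16 and -0.24.

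**Figure D3:**
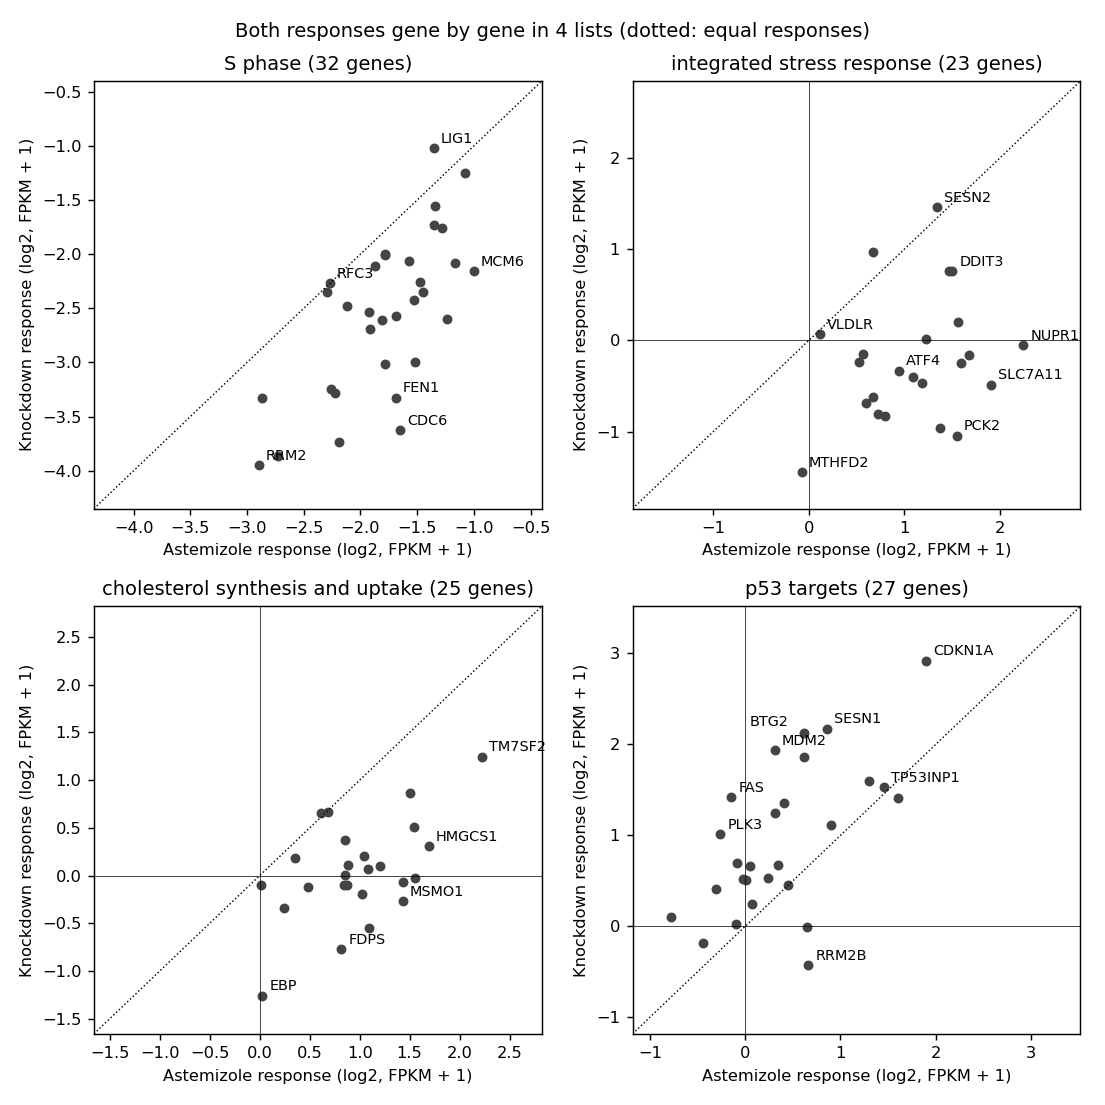
Knockdown response against astemizole response, as log2 of FPKM + 1, for each gene of the S phase, integrated stress response, cholesterol and p53 target lists; the dotted line marks equal responses. Under the line lie 30 of 32 S phase genes, at lower left, 21 of 23 stress response genes and 24 of 25 cholesterol genes, and 24 of 27 p53 target genes lie above it, a side that was not kept with the controls exchanged, where their median difference was -0.09.

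Sterol genes were a second group higher mainly with astemizole. Cells make cholesterol through the mevalonate pathway, which the factor SREBF2 activates when sterols run low in the endoplasmic reticulum. Of 25 genes of cholesterol synthesis and uptake 12 were at least 2-fold higher with astemizole (median 0.88) and 1 was higher and 1 lower with knockdown (median 0.01). Over all genes the shares were 3.43%, 1.9% and 5.05%. The difference had a median of -0.97, with 24 genes below 0, and was -0.94 and -0.96 in the direct comparison and with the controls exchanged. MSMO1, a sterol demethylating oxidase, stood at 42.9, 117, 47.2 and 39.1 FPKM (1.43 and -0.27). HMGCS1, which makes the precursor of mevalonate, stood at 19.5, 65.3, 22.4 and 27.9 (1.69 and 0.30), and INSIG1, which retains SREBF2 at the endoplasmic reticulum, at 204, 435, 161 and 109.8 (1.09 and -0.54). In these genes the astemizole column was higher than each of the other 3. TM7SF2, a sterol reductase, was higher with both, at 75.5, 356, 88.5 and 211 FPKM (2.22 and 1.25). EBP, a sterol isomerase, was low in the knockdown column, at 210.4, 214, 135 and 55.8 FPKM (0.03 and -1.26).

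Fatty acid synthesis and desaturation genes differed on both sides. Of 14 genes 4 were at least 2-fold higher with astemizole and 3 lower with knockdown, and 7 had a difference of -1 or lower. Over all genes the shares were 3.43%, 5.05% and 4.34%. SCD, which desaturates stearate, stood at 166, 656, 275 and 190.1 FPKM (1.98 and -0.53). FADS2 and FADS1, which desaturate polyunsaturated fatty acids, stood at 539.5, 776, 562 and 159 FPKM and at 52.0, 87.6, 59.8 and 19.3 FPKM. Their responses were 0.52 and -1.82 for FADS2 and 0.74 and -1.58 for FADS1. ELOVL6, an elongase, was lower in the knockdown column alone, at 8.01, 8.44, 7.21 and 2.13 FPKM. FASN, the synthase itself, had -0.32 and -0.29.

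Lysosome genes passed 2-fold mainly with astemizole. With astemizole 9 of 34 genes passed upward and 1 downward (median 0.58, and 3.43% upward over all genes), and with knockdown 1 upward (median 0.40, and 1.9% over all genes). NEU1, the lysosomal sialidase, stood at 23.3, 105, 19.4 and 34.1 FPKM (2.13 and 0.78), and NPC2, which hands cholesterol out of the lysosome, at 94.3, 317, 71.4 and 98.4 (1.74 and 0.46). CTSD, a lysosomal protease, stood at 124, 329, 121 and 150.2 (1.40 and 0.31), whereas TPP1, a peptidase, was past 2-fold with both, at 12, 47.6, 16.2 and 36.0 (1.90 and 1.11). Among 16 genes of autophagy and the MiT/TFE factors 8 were at least 2-fold higher with astemizole and 1 with knockdown. SQSTM1, the autophagy receptor p62, stood at 84.2, 297, 102 and 145 FPKM (1.81 and 0.51). RRAGD, a GTPase of lysosomal nutrient sensing, stood at 2.61, 9.45, 2.67 and 2.89 (1.53 and 0.09). The transcription factor genes MITF and TFEB were themselves lower in both against their own controls (-0.87 and -1.46 for MITF, -0.85 and -0.88 for TFEB). The astemizole part depended on the control: compared with scramble shRNA, the lowest astemizole response among the 16 genes was -0.31.

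Ferritin genes and several antioxidant and antigen presentation genes had a higher response to astemizole than to knockdown. FTH1 and FTL, the chains of the iron storage shell, stood at 2104, 9758, 1422 and 1767 FPKM and at 381, 1363, 353 and 440.1 FPKM, with responses of 2.21 and 0.31 for FTH1 and 1.84 and 0.32 for FTL. Both genes have many processed copies in the genome, and the handling of reads from them is not stated. LCN2, an iron-binding lipocalin, was outside the filter because 2 columns list it at 0, with 0.492 FPKM for vehicle and 16.4 for astemizole. HMOX1, heme oxygenase, stood at 17.1, 59.5, 10.4 and 11 FPKM (1.74 and 0.08), and TXNRD1, thioredoxin reductase, at 109.9, 191, 115 and 74.3 (0.79 and -0.62). Over 14 NRF2 target genes 3 were at least 2-fold higher with astemizole and none with knockdown, with medians of 0.44 and 0.07. Of 15 genes of MHC class I presentation 2 were at least 2-fold higher with astemizole (median 0.79) and 2 lower with knockdown (median -0.22). Of all genes, 5.05% were at least 2-fold lower with knockdown. The difference was below 0 in 13 of the 15 and above 0 in 2. HLA-B, a heavy chain gene, stood at 38.4, 84.6, 36.7 and 27.8 FPKM (1.12 and -0.39) and B2M, the invariant light chain, at 298, 583, 203 and 212 (0.97 and 0.06). Heavy chain genes resemble one another, so the reads counted for HLA-B are uncertain, while B2M has no such relative.

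Several genes with the widest gaps were near 0 FPKM outside the astemizole column. HSPA6, an inducible HSP70 gene, stood at 0.327, 12.6, 0.238 and 0.273 FPKM (3.35 and 0.04, difference -3.31). Its relatives HSPA1A and HSPA1B stood at or near 0 in every column, and the sources used here do not say how reads that fit several near-identical copies were counted. DIO3, a deiodinase that inactivates thyroid hormone, stood at 0.0638, 9.58, 0.0182 and 0.148 (difference -3.14). HSD17B14, a steroid dehydrogenase, stood at 3.05, 22, 1.91 and 2.02 FPKM (-2.45), NOS3, endothelial nitric oxide synthase, at 1.43, 13.7, 0.979 and 1.44 (-2.30), and SLC6A9, a glycine transporter, at 3.13, 17.1, 1.17 and 1.20 (-2.12). BEST1, CSTA, IFI27L2 and RNF187 were also among the 12 widest, with differences of -2.14, -2.01, -2.10 and -2.25. CYP1A2, a xenobiotic oxidase, stood at 0.436, 9.23, 0.573 and 1.41 FPKM (2.83 and 0.61). KCNH2, which encodes the hERG channel that astemizole blocks, stood at 0.572, 1.95, 0.606 and 0.505 (0.91 and -0.09), and HRH1, the histamine receptor gene, stayed under the level limit.

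Of the 178 astemizole-only higher genes 102 (57.3%) stayed in the class with the controls exchanged. SLC7A11, CHAC1, PSAT1, HMOX1, SLC6A9, CSTA, IFI27L2, RNF187 and CRYAB left it, all with a lower difference than before, from -2.26 (PSAT1) to -3.97 (SLC6A9). The histone gene HIST1H4E left it as well, with a difference of -0.23 in place of -1.53. Of the 178 genes, 149 were at least 2-fold higher with astemizole than with knockdown when these columns were compared directly. The same columns entered the choice of the class, so this count is no separate support for it. The GSK126 column had a median of 0.35 against vehicle and 0.36 against scramble shRNA for the same genes, with 8 and 10 of them at least 2-fold higher. Among all 12711 genes 99 and 148 were, with medians of -0.04 and 0.05.

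The 72 astemizole-only lower genes were the class that held least when the control was exchanged. With the controls exchanged 5 of the 72 (6.94%) stayed in the class, 15 (20.8%) had control columns at least 2-fold apart, where 0.126% and 0.637% of all genes did, and 18 were 2-fold apart in the direct comparison. Those that stayed included PHLDA1, a growth factor-responsive gene, at 18.7, 1.15, 15.2 and 13.7 FPKM (-3.20 and -0.13), TNFRSF19, a receptor of the TNF family, at 165, 49.1, 179 and 156 (-1.73 and -0.20), and MIPEP, a mitochondrial peptidase, at 96.3, 33.9, 91.1 and 91.7 (-1.48 and 0.01). In these 3 the astemizole column was the low one and the other 3 were close together. NAP1L1, a histone chaperone, stood at 949, 304, 757 and 728 FPKM, and HSP90B1, the chaperone of the endoplasmic reticulum, at 388, 170.2, 292 and 291. Others in the 12 widest were BNIP2, DHX36, LFNG, LYAR, NOP58, SNHG15 and HIST1H2BJ, with differences from 1.40 (NOP58) to 1.87 (HIST1H2BJ). These 7, NAP1L1 and HSP90B1 left the class with the controls exchanged, and their differences were then between 0.14 (LYAR) and 1.05 (BNIP2). SNURF-SNRPN stood at 8.13 FPKM with vehicle and at 0.0737, 0.0766 and 0.0973 in the astemizole, scramble and knockdown columns, and its difference of 3.12 was -3.05 with the controls exchanged. The same shape was seen in 2 liver genes. ALB stood at 4.18 FPKM with vehicle and at 0.133, 0.119 and 0.124 in the astemizole, scramble and knockdown columns, and SERPINA1 at 1.40, 0.0958, 0.125 and 0.188. The GSK126 column, outside these contrasts, was high as the vehicle column was, at 28.7 FPKM for ALB, 13.2 for SERPINA1 and 6.31 for SNURF-SNRPN. The part in this class of what the vehicle and GSK126 columns share was not tested.

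The knockdown-only higher class held 74 genes. Higher with knockdown as well were targets of p53, the damage-activated factor that halts the cell cycle. Of 27 p53 target genes 4 passed 2-fold upward with astemizole and 13 with knockdown, or 8 and 8 with the controls exchanged. Of all 12711 genes, 436 and 242 did, or 572 and 245 with the controls exchanged. Against each perturbation's own control the medians were 0.32 and 0.70. The median difference was 0.54, with 3 genes below 0, but the median of scramble shRNA over vehicle was -0.31 for this list, and the median was 0.22 in the direct comparison and -0.09 with the controls exchanged. MDM2, the ligase that degrades p53, stood at 31.2, 38.9, 18.7 and 74.4 FPKM (0.31 and 1.93). FAS, a death receptor, stood at 3.37, 2.95, 1.92 and 6.79 (-0.15 and 1.42), and SESN1, a stress sensor upstream of mTORC1, at 20.2, 37.3, 21.4 and 100.2 (0.86 and 2.17). BTG2, an antiproliferative gene, stood at 22.6, 35.1, 14.1 and 64.7 (0.61 and 2.12). The knockdown column was the highest of the 4 for each of these genes, and their direct comparisons gave 0.92, 0.98, 1.40 and 0.86. BBC3, the gene of PUMA, and TP53INP1 were shared, with 1.60 and 1.41 and with 1.45 and 1.53.

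Other genes of the class were THBS1, a matrix glycoprotein, at 19.3, 19.1, 9.31 and 51.8 FPKM (-0.01 and 2.36), and TARP, a prostate transcript from the T cell receptor gamma locus, at 1.14, 0.644, 0.320 and 6.93 (-0.38 and 2.59). HS3ST1, a heparan sulfotransferase, stood at 4.21, 4.85, 3.33 and 17, GDAP1, a mitochondrial fission factor, at 4.52, 4.85, 3.76 and 16.2, and LINC00161, a noncoding RNA, at 11.9, 10.6, 11.2 and 43.0. These 3 kept the class with the controls exchanged, as did 22 of the 74 (29.7%). TARP, WNT5A, SYP and SCG3 kept it as well. THBS1, CROT, CHST2, NUDT19, FAS and MDM2 did not. The difference of THBS1 went from 2.37 to 0.42, that of FAS from 1.56 to 0.40 and that of MDM2 from 1.62 to 0.21, and the differences of CHST2 (1.74) and NUDT19 (1.96) were -0.45 and -0.49 in that setting. Of 10 neuroendocrine markers 3 were measured. SYP, synaptophysin, stood at 0.864, 0.884, 0.510 and 4.63 FPKM, and SCG3, a secretory granule protein, at 0.0652, 0.0137, 0.0335 and 3.45, both high in the knockdown column alone, while ENO2 was low there, at 1.95, 3.30, 2.83 and 0.895. CHGA, CHGB, INSM1, NCAM1, SCG2 and UCHL1 stood under the level limit.

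Knockdown-only lower genes numbered 64, of which 31 (48.4%) stayed with the controls exchanged. CANX, RCN1, MGAT1, PGM1, EBP and MT1F left it. DNAJC3, a co-chaperone of the endoplasmic reticulum, stood at 19.1, 18.8, 19.2 and 5.04 FPKM (-0.02 and -1.74). CANX, the lectin chaperone calnexin, stood at 142, 144, 169.6 and 60.1 (0.03 and -1.48), and RCN1, a calcium-binding protein of the same compartment, at 53.6, 74.5, 48.2 and 18.4 (0.47 and -1.34). ALG14 and MGAT1, which build N-linked glycans, stood at 25, 26.7, 24.9 and 6.95 FPKM and at 35.9, 45.8, 28.5 and 9.86. In each the knockdown column alone was low. The list of 21 ER chaperones as a whole had medians of -0.33 and -0.32, 3 members at least 2-fold lower with knockdown and 2 with astemizole. Over all genes, 5.05% were at least 2-fold lower with knockdown and 5.33% with astemizole. HSP90B1 (-1.18 and -0.01) took the reverse course to CANX and DNAJC3. PRADC1 had the widest gap of the class, at 43.0, 32.8, 32.4 and 4.19 FPKM (-0.38 and -2.69), followed by RAB31, a small GTPase, and PGM1, phosphoglucomutase, with differences of -1.97 and -1.82. MT1F, a metallothionein gene, was highest with scramble shRNA, at 34.8, 38.9, 97.4 and 31.2, and its difference of -1.77 was 1.15 with the controls exchanged.

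In the opposite class 12 genes went past 2-fold in opposite directions, and 4 of the 12 (33.3%) did so with the controls exchanged. TRPM8, an androgen-induced cation channel, stood at 31.2, 11.7, 19.2 and 46.1 FPKM (-1.34 and 1.22). TFPI, an inhibitor of coagulation, stood at 39.3, 17, 36.1 and 85.8 (-1.16 and 1.23), and CBLN2, a synaptic organiser, at 27.5, 6.04, 12.5 and 37.2 (-2.02 and 1.5). PCK2, the mitochondrial carboxykinase and an ATF4 target, was the reverse, at 38.9, 116, 29.6 and 13.8 (1.55 and -1.05), as was FAM129A, another stress-responsive gene, at 5.90, 18.8, 5.10 and 1.62 (1.52 and -1.22). TFPI, PCK2 and FAM129A kept their class with the controls exchanged, and TRPM8 and CBLN2 did not, with differences of 1.22 and 1.36 in place of 2.56 and 3.52.

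Several lists of abundant genes had small responses of opposite sign. Proteasome subunits had medians of -0.28 with astemizole and 0.39 with knockdown over 37 genes, with 4 genes of negative difference. PSMD14, the deubiquitinating subunit, stood at 78.2, 53.6, 71.0 and 103 FPKM (-0.54 and 0.53), and PSMA7, a core subunit, at 432, 301, 347 and 488 (-0.52 and 0.49). The heat shock list, which holds mitochondrial chaperonins as well, had medians of -0.45 and 0.41 over 12 genes, and HSPA6 and CRYAB were the 2 with a negative difference. One of the others was HSPE1, a mitochondrial chaperonin, at 427, 316, 306 and 483 FPKM (-0.43 and 0.66). The median difference of both lists stayed positive in the direct comparison (0.43 and 0.55) and with the controls exchanged (0.25 and 0.39). Respiratory chain genes had a median difference of 0.45 over 71 genes, but it was 0.09 in the direct comparison and -0.26 with the controls exchanged, and the controls themselves differed by -0.36 for that list.

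**Figure D4:**
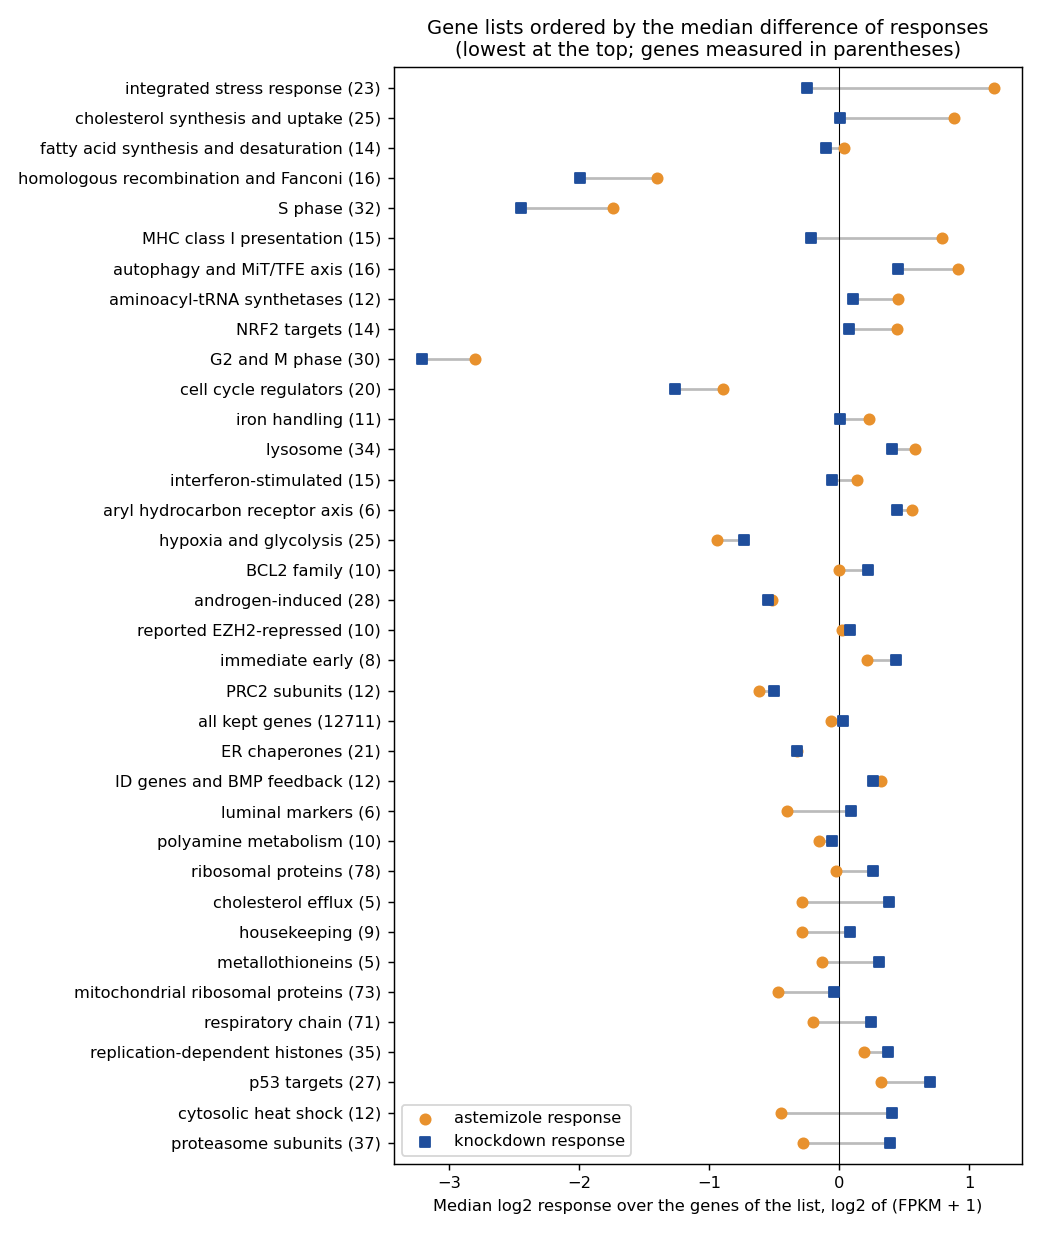
Median astemizole response (circles) and knockdown response (squares), as log2 of FPKM + 1, for each list with 5 or more genes measured, ordered by the median difference of responses. The integrated stress response and cholesterol lists are at the top with circles at 1.19 and 0.88 and squares near 0, the cell division lists lie far to the left, and the proteasome and heat shock lists are at the bottom.

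**Figure D5:**
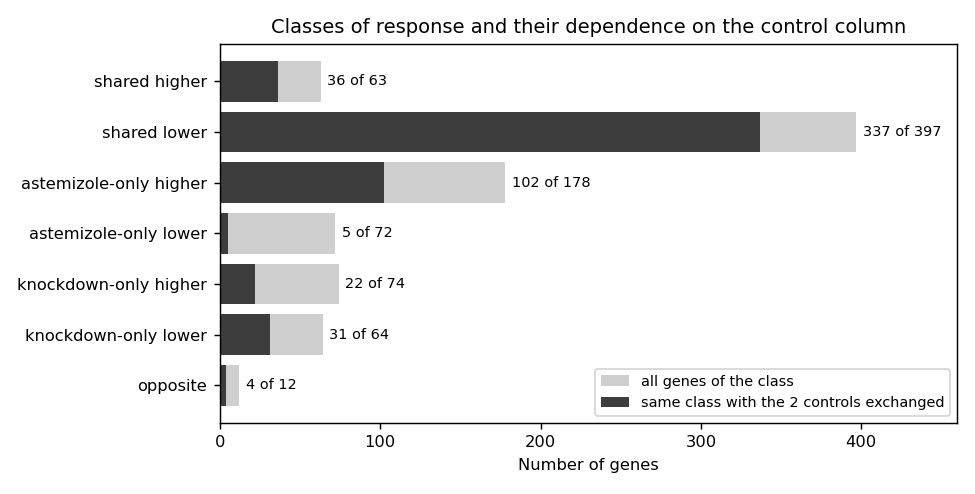
Number of genes in each class (grey bars) and number of the same genes in the same class when the knockdown is compared with vehicle and astemizole with scramble shRNA (dark bars). The shared lower class kept 337 of 397 genes and the astemizole-only lower class 5 of 72.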

How the data were processed

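Polyadenylated RNA of 6 C4-2 libraries was sequenced, and the table deposited by the authors holds FPKM values in 5 columns, since both EZH2 shRNA libraries appear as 1. Reads were processed with TopHat2 and Cuffdiff on hg19, per the submitters' processing notes, which give no tool versions. Replicate handling and the treatment of reads that fit several places are not stated in the labels, and depth is unknown. Of its names, 27 that had become dates and 1681 short non-coding RNA names were left out, which left 26795. Of 12793 names at 1 FPKM or more in any of the 4 columns used, 82 were at 0 in at least 1 and were left out. Responses were computed on log2(FPKM + 1). With 1 value per condition no test was run, and the class assignment was checked on simulated data. The members and the 42 gene lists were chosen with earlier results of these data known.

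Genes were named by rule: the 10 of each shared class with the largest smaller response, the 12 of each astemizole-only class and the 8 of each knockdown-only class with the largest difference, up to 10 opposite genes, from each list up to 4 members of largest difference and up to 2 of smallest smaller-of-both response, and EZH2, EED, SUZ12 and EZH1. Class genes needed 5 FPKM in at least 1 of the 4 columns and a symbol in the reference tables, which 11937 of the 12711 kept genes had. Other genes named as members of a list were chosen after their values were seen. Some genes that the rule names are not reported here. Promoters are from RefSeq on GRCh38.p14 and were matched by symbol for 9656 kept genes. Alternatives were a pseudocount of 0.1 FPKM, other level minimums, genes listed at 0 kept, rescaling to a common sum, centring of each response, fold limits of 1.5 and 3, exchanged controls and a direct comparison of the treated columns. Python 3.11.15, pandas 2.3.3, numpy 2.4.6, scipy 1.17.1 and matplotlib 3.10.9 were used.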

Additional observations from a re-analysis of the deposited data

Results flagged for a closer look

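Genes past 2-fold in opposite directions with astemizole and with EZH2 knockdown were singled out, with 1 library value per condition, so the difference between the responses was not tested for any of them. Lower with astemizole and higher with knockdown were CBLN2 (difference of responses 3.52 on the log2 scale), HLX (2.97), KLHL1 (2.84), TMEFF2 (2.74), TRPM8 (2.56) and TFPI (2.39). HLX, a homeobox gene, stood at 4.87 FPKM with vehicle and 1.32 with astemizole, against 1.86 with scramble shRNA and 7.92 with knockdown. TMEFF2, a transmembrane protein of the prostate and brain, stood at 7.71, 2.82, 3.74 and 12.9 FPKM in the same order, and KLHL1, a neuronal actin-binding protein gene, at 3.27, 0.455, 2.33 and 7.10. In each of the 3 genes the astemizole column was the lowest and the knockdown column the highest. None of the 3 stayed past 2-fold in opposite directions with the controls exchanged, where the differences were 0.90 for HLX, 0.98 for TMEFF2 and 2.12 for KLHL1. Higher with astemizole and lower with knockdown were FAM129A (-2.74) and PCK2 (-2.60).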

How the results depend on the processing

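No paired analysis was possible because each condition has 1 column of values. With the controls exchanged, the median difference over all genes went from 0.07 to -0.13, the astemizole-only lower class counted 30 genes, knockdown-only lower 171, opposite 29, and 2-fold differences 1570, of which 1221 were lower. Of 260 named genes 124 then moved by less than the limit, 126 moved and 10 reversed: ALB -2.22, CDKN1A -1.05, CHST2 -0.45, HIST1H2AD -0.56, HIST1H3F -2.09, MT1F 1.15, NUDT19 -0.49, RPS17L 2.21, SERPINA1 -0.97 and SNURF-SNRPN -3.05. The liver marker median reversed to -1.60. In the direct comparison of the treated columns 165 genes were higher, and ALB (-0.0115), CDKN1A (-0.0178) and HIST1H3F (-0.52) reversed. A pseudocount of 0.1 FPKM gave 125 shared higher, 151 astemizole-only lower, 145 knockdown-only higher, 159 knockdown-only lower and 53 opposite genes, and 1695 differences (689 higher, 1006 lower). Genes listed at 0, when kept, gave 21 opposite genes, rescaling to a common sum 110 knockdown-only lower genes, and centring 45 astemizole-only lower genes. A 1.5-fold limit gave 317 shared higher, 810 shared lower, 616 and 559 astemizole-only higher and lower, 407 and 328 knockdown-only higher and lower, 103 opposite and 3399 differences (1826 higher, 1573 lower). A 3-fold limit gave 7, 195, 27, 7, 15, 7 and 1 in the same order and 172 differences (60 higher, 112 lower). The shared part of the astemizole genes ranged from 35.6% (1.5-fold) to 59.9% (3-fold). The fold limits alter counts by construction. For the other settings the cause was not tested.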

Other observations

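Polyamine and histone genes gave further contrasts. ODC1, the first enzyme of polyamine synthesis, stood at 1274 FPKM with vehicle and 198 with astemizole, against 958 with scramble shRNA and 276 with knockdown, responses of -2.68 and -1.79. Spermine synthase, SMS, stood at 265, 101, 321 and 201 FPKM in the same order. Over 10 polyamine genes 3 were at least 2-fold lower with astemizole and 1 with knockdown, where 5.33% and 5.05% of all genes were. Among 68 replication-dependent histone genes 35 were measured, of which astemizole had 8 past 2-fold upward and 4 downward, and knockdown 10 and 3. Over all genes, 3.43% were past 2-fold upward and 5.33% downward with astemizole, and 1.9% and 5.05% with knockdown. HIST1H2BF and HIST1H4E had differences of responses of 2.15 and -1.53, and of 1.65 and -0.23 with the controls exchanged. These transcripts mostly lack the poly(A) tail on which the libraries were selected and many share sequence, so their values are uncertain.

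Interferon and apoptosis genes differed singly. Of 15 interferon-stimulated genes measured, each perturbation had 1 past 2-fold upward and 2 downward, where 3.43% and 5.33% of all genes did so with astemizole and 1.9% and 5.05% with knockdown. IFI6, an interferon-induced mitochondrial protein, stood at 34.2, 41.7, 25.5 and 13.1 FPKM, and OAS3, an oligoadenylate synthetase, at 4.08, 1.32, 4.75 and 0.604. IFI6 was low in the knockdown column, and OAS3 in both treated columns. In the BCL2 family, the survival gene BCL2L1 stood at 50.4, 75.5, 51.4 and 31.2 FPKM, a difference of -1.27. The death-promoting gene BIK stood at 22.3, 22.4, 18.5 and 43.4, a difference of 1.17. With the controls exchanged these differences were -1.22 and 0.67, and BIK left the knockdown-only higher class.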
